A study of Mus musculus with 6 samples.

Results

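The interferon-inducible GTPases described here were 10 genes chosen by name: the guanylate-binding proteins Gbp2, Gbp3, Gbp5, Gbp7 and Gbp9, and the immunity-related GTPases Irgm1, Irgm2, Igtp (also called Irgm3), Iigp1 (Irga6) and Ifi47 (Irgd). All 10 were among the 13709 gene rows measured, and all 10 passed the filter on low counts. They were measured by bulk RNA-Seq in CD4+YFP+CD25+ Tregs, which are Foxp3-expressing CD4+ T cells that hold other T cells in check, sorted from 3 WT and 3 KO samples of C57BL/6 mice. WT mice carried Foxp3Cre alone, and KO mice carried Foxp3Cre together with Zfp335fl/fl. Foxp3Cre is a fusion of YFP and Cre recombinase made from the Foxp3 locus, so both groups made Cre and YFP in their Tregs, and the gene for the zinc finger protein Zfp335 was floxed in KO mice alone. The study's methods give an age of 2 weeks. The labels named both lymph nodes and spleen as the source. Whether a sample was 1 mouse or several was not stated, so p-values measure only the spread between these samples.

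Both families are GTPases that cells make in large amounts after contact with interferons, above all IFN-γ. IFN-γ binds a receptor of the chains Ifngr1 and Ifngr2, the kinases Jak1 and Jak2 carry the signal onward, and the factor Irf1 is among those that switch on their genes. The guanylate-binding proteins are large GTPases of the dynamin superfamily that coat vacuoles and bacteria in infected cells. Among the immunity-related GTPases, Iigp1 and Ifi47 belong to the effectors that load onto the vacuoles of parasites, whereas Irgm1, Irgm2 and Igtp are regulators that stay on the cell's own membranes and hold the effectors inactive. In CD4+ T cells, Irgm1 is known for protecting cells from death in the presence of IFN-γ.

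The difference between effectors and regulators lies in the P-loop, the stretch that holds the phosphates of GTP, and the codons of that loop are shown here because they divide the members by role. Each member's main coding sequence held 1 match to the pattern of a glycine, 4 further residues, a glycine, a lysine or methionine, and a serine. The residue before the serine was lysine in 7 members, among them all 5 guanylate-binding proteins, Iigp1 and Ifi47, and methionine in Irgm1, Irgm2 and Igtp. The 24 bases are given 5′ to 3′ on the coding strand from GENCODE M21 transcripts (mm10), with that codon in capitals. They lie within coding exons at chr3:142623826-142623849 (Gbp2), chr11:49095648-49095671 (Ifi47), chr11:58206275-58206298 (Igtp), chr11:58219695-58219718 (Irgm2) and, on the minus strand, chr11:48866761-48866784 (Irgm1). The 3 regulators shared all 24 bases.
Gbp2: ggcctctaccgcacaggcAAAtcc
Ifi47: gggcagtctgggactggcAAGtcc
Igtp: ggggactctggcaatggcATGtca
Irgm2: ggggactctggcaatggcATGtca
Irgm1: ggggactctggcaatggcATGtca

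Total counts were between 32032631 and 40728419 per sample, and the 10 members had between 1179 and 19213 counts in a sample, so counting error was small for all of them. Levels are given as CPM, the counts relative to TMM-scaled library totals. Zfp335 was at 101, 94.3 and 103 CPM in WT and at 37.0, 37.9 and 40.2 CPM in KO (log2FC, the log2 ratio of KO over WT in the fit, -1.37, SE 0.07, adjusted p = 2.14e-05 by edgeR's quasi-likelihood test with Benjamini-Hochberg adjustment). WT replicate 3 stood apart from the other 2 WT samples. The agreement of 2 libraries was measured by a chi-square per gene, over tested genes above a low count. Its median, relative to the median from counting error alone, was 9.96 for WT replicates 1 and 2. That ratio was 23.5 and 24.5 between each of them and WT replicate 3, and 5.27 to 6.06 between KO samples. The biological coefficient of variation was 0.263 in WT, 0.127 in WT replicates 1 and 2, and 0.0702 in KO. Since this library also stood apart for the GTPases, the members' results below are given with and without it.

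Of the interferon-inducible GTPases, Gbp2 and Iigp1 were several times as high in KO as in WT Tregs, and the other members differed less or not beyond the spread of the WT samples. A gene was called when the fold exceeded 1.5, the p-value was under 0.05 and the adjusted p was under 0.1. Among the 10, 5 rose (Gbp2, Iigp1, Igtp, Irgm1 and Gbp5), 0 fell and 5 did not pass (Gbp3, Gbp7, Gbp9, Ifi47 and Irgm2). Across all 13594 genes tested, 24.4% were called in either direction and 11.9% were called higher. All 10 members had a positive log2 fold change, with a median of 0.70 beside -0.04 for all genes tested. Of the members, 7 had every KO sample above every WT sample, as had 26.2% of all genes tested. Without WT replicate 3, 8 of 10 members were called higher, beside 13.6% of all genes, and the median was 1.12. In bulk RNA, fewer cells of a type and less RNA per cell cannot be told apart, which holds for all of these levels.

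**Figure D1:**
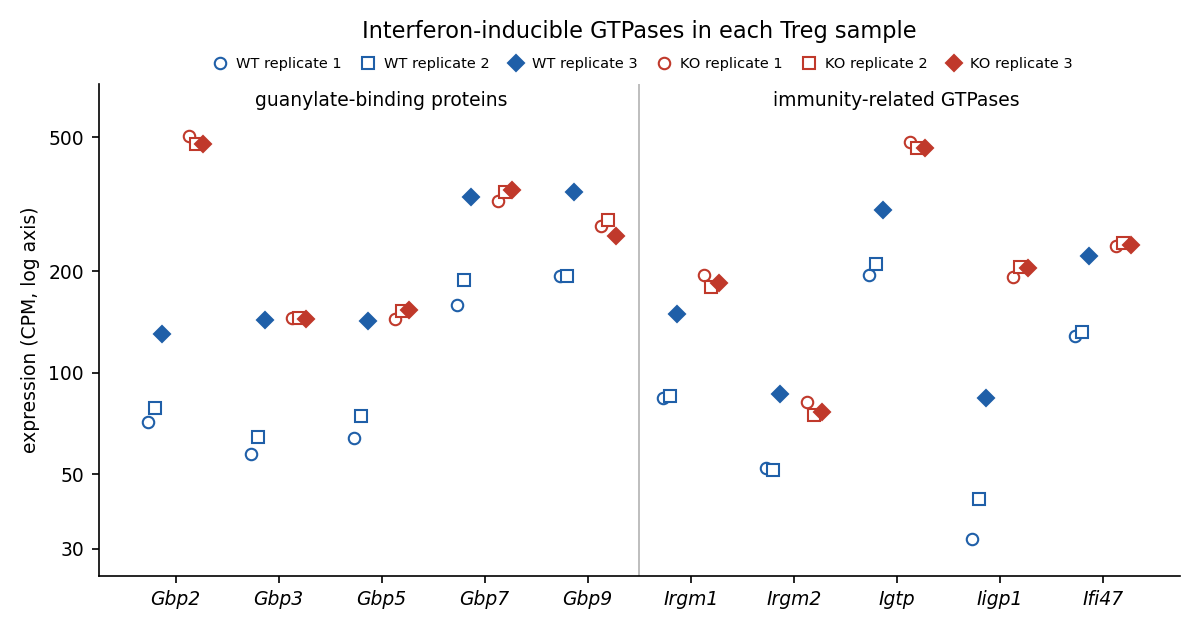
Expression of each of the 10 GTPases in every sample, in CPM on a log axis, with WT samples in blue and KO samples in red, and 1 symbol per replicate number. WT replicate 3 (filled blue) lies above both other WT samples for every gene and within or above the KO samples for Gbp7, Gbp9 and Irgm2.

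Gbp2 had the largest difference of the 10. Gbp2, which takes part in breaking pathogen vacuoles, was at 71.6, 78.4 and 130 CPM in WT and at 505, 478 and 477 CPM in KO. The groups did not overlap, and the lowest KO sample was far above WT replicate 3. Its mean was 93.4 ± 32.0 CPM in WT against 487 ± 16 CPM for KO (SD, n = 3 each), 5.21 times as high. The log2 fold change was 2.38 (SE 0.22, 95% interval 1.88 to 2.88, adjusted p = 0.000202), and 2.69 without WT replicate 3.

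The other guanylate-binding proteins differed less, and their calls were sensitive to WT replicate 3 and to the processing. Gbp5, known for its part in assembly of the Nlrp3 inflammasome, was at 64.1, 74.5 and 143 CPM in WT and at 144, 153 and 154 CPM in KO. WT replicate 3 was thus within a few CPM of the lowest KO sample. The log2 fold change was 0.68 (SE 0.27, adjusted p = 0.0803) over all samples and 1.11 (SE 0.07) with WT replicate 3 left out. Gbp5 lost its call when any single sample other than WT replicate 3 was left out. With all samples kept, DESeq2, the tool the study used, did not call Gbp5 (adjusted p = 0.118).

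Gbp3 was at 57.6, 64.3 and 143 CPM in WT and at 146, 146 and 144 CPM in KO. The groups did not overlap, but WT replicate 3 equalled the KO samples to within 3 CPM. With all samples Gbp3 was not called (log2FC 0.72, SE 0.31, adjusted p = 0.109), and leaving out WT replicate 3 gave a call at 1.25 (SE 0.07). With all samples kept, Gbp3 passed with RLE scaling (adjusted p = 0.0942), and Gbp7, described next, passed with DESeq2 (adjusted p = 0.0175). Gbp7, which has been tied to the delivery of autophagy and oxidase proteins to vacuoles, was at 159, 189 and 333 CPM in WT and at 324, 343 and 350 CPM in KO, so WT replicate 3 lay inside the KO range. Its log2 fold change was 0.58 (SE 0.24, adjusted p = 0.0988), a fold of 1.49 just under the cutoff, and 0.96 without WT replicate 3.

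Gbp9 was the member whose groups differed least. It was at 194, 193 and 345 CPM in WT and at 274, 283 and 256 CPM in KO. WT replicate 3 was above all KO samples and the other 2 WT samples below them. The log2 fold change was 0.15 (SE 0.22, 95% interval -0.35 to 0.65, adjusted p = 0.623). Without WT replicate 3 it was 0.48 (SE 0.06), under the fold cutoff and not called.

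Among the immunity-related GTPases, 3 of 5 rose, beside 11.9% of all genes, namely 1 effector and 2 regulators. The effector Iigp1 was at 32.0, 42.1 and 84.4 CPM in WT and at 193, 206 and 205 CPM in KO. The groups were far apart, although WT replicate 3 was again the highest WT sample. The log2 fold change was 1.93 (SE 0.32, 95% interval 1.19 to 2.67, adjusted p = 0.00257), or 2.44 without WT replicate 3. The other effector, Ifi47, was at 129, 132 and 222 CPM in WT and at 239, 243 and 240 CPM in KO. Its groups did not overlap, but its log2 fold change of 0.58 (SE 0.20, adjusted p = 0.0505) was under the fold cutoff, and its call appeared only with WT replicate 3 left out or under some other settings.

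The regulators ranged from a clear difference to none that passed. Igtp was at 195, 210 and 304 CPM in WT and at 485, 466 and 466 CPM in KO, with no overlap. Its mean was 2.0 times as high in KO (log2FC 1.0, SE 0.16, adjusted p = 0.00207) and its log2FC without WT replicate 3 was 1.22. It was the only member for which WT replicate 3 was not over 1.5 times both other WT samples. Irgm1 was at 84.1, 85.6 and 150 CPM in WT and at 195, 180 and 185 CPM in KO, which gave a log2FC of 0.81 with SE 0.21 (adjusted p = 0.0187). For Irgm1 too every KO sample was above every WT sample, and its log2FC without WT replicate 3 was 1.13. Irgm2 was at 52.1, 51.5 and 86.3 CPM in WT and at 81.8, 75.2 and 76.7 CPM in KO, so WT replicate 3 exceeded every KO sample. Its log2 fold change was 0.30 (SE 0.19, 95% interval -0.15 to 0.75, adjusted p = 0.259), and 0.58 without WT replicate 3, just short of the fold cutoff.

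**Figure D2:**
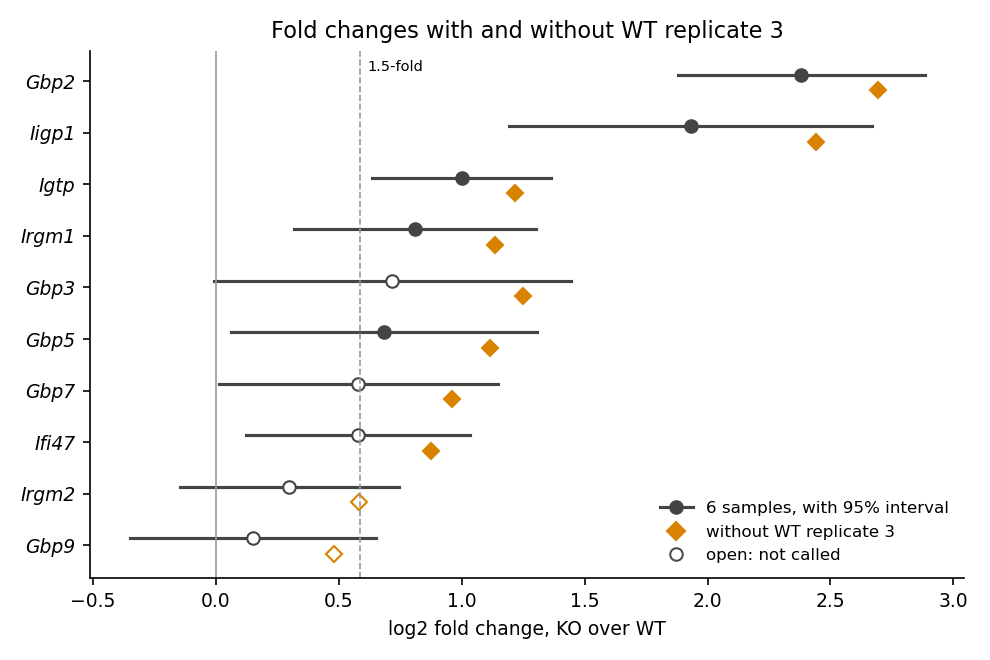
Log2 fold change of KO over WT for the 10 GTPases, in grey over all 6 samples with the 95% interval and in orange without WT replicate 3, with filled symbols for called genes and the 1.5-fold cutoff dashed. Every orange value lies to the right of its grey one, and 8 orange symbols are filled against 5 grey ones.

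The members also differed in how even they were within a group. The coefficient of variation over the 3 KO samples was between 0.668% (Gbp3) and 5.19% (Gbp9), whereas over the 3 WT samples it was between 24.9% (Igtp) and 53.9% (Gbp3). WT replicate 3 exceeded 1.5 times both other WT samples for 9 of 10 members, as it did for 8.44% of all genes tested. Relative to the mean of WT replicates 1 and 2, WT replicate 3 was between 1.499 times (Igtp) and 2.35 times as high (Gbp3). Relative to WT replicate 3 alone, a comparison with a single library and no test, the KO mean was 3.74 times as high for Gbp2, 2.39 times for Iigp1 and 1.56 times for Igtp, but 1.02 times for Gbp7 and 0.785 times for Gbp9. The 10 members summed to 1039, 1121 and 1940 CPM in WT and to 2587, 2573 and 2554 CPM in KO.

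Profiles of 2 members over the 6 samples were compared by the root mean square difference of their log2(CPM + 0.5) values, each centred on its mean. The closest pairs were Gbp5 and Gbp7 (0.0682), Gbp3 and Gbp5 (0.0808), Gbp7 and Ifi47 (0.0899), and Gbp9 and Irgm2 (0.095), and the farthest apart were Gbp2 and Gbp9 (1.11). Gbp2 and Iigp1, the members with the largest log2 fold changes, were nearer to each other (0.252) than either was to any other member. The profiles were not scaled, so the size of the log2 fold change entered the measure and made this nearness likely beforehand. Among genes of at least 5 CPM, the profiles nearest to the members' mean profile were those of Ubald2 (0.0269), Pmaip1 (0.0813), Capn5 (0.0831), Atp10a (0.0949) and Glrx (0.0951). Ubald2, as an example, was at 49.7, 52.1 and 98.2 CPM in WT and at 125, 127 and 127 CPM in KO. All 5 of these genes were called higher in KO, which their choice by likeness to a profile higher in KO made likely beforehand.

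Levels were compared between members per length, as CPM per kilobase of exon (RPKM). In WT, Igtp was highest at 117 ± 29.1 RPKM, followed by Ifi47 at 65.2 ± 21.3, Gbp9 at 47.2 ± 16.9, Gbp7 at 40.4 ± 16.5, Gbp2 at 37.1 ± 12.7 and Gbp3 at 27.1 ± 14.6 RPKM. Irgm1 at 18.3 ± 6.46, Irgm2 at 17.2 ± 5.40, Gbp5 at 14.1 ± 6.43 and Iigp1 at 9.08 ± 4.78 RPKM were the lowest. Beyond the gap between Igtp and Ifi47, no neighbours in this order were separated by more than the sum of their SDs. In KO, Igtp was still highest at 234 ± 5.44 RPKM, Gbp2 came next at 193 ± 6.37, followed by Ifi47 at 97.3 ± 0.797 RPKM. Gbp7 at 60.4 ± 2.39, Gbp9 at 52.4 ± 2.72, Gbp3 at 44.5 ± 0.297, Iigp1 at 34.6 ± 1.25, Irgm1 at 32.1 ± 1.34, Gbp5 at 22.7 ± 0.782 and Irgm2 at 21.1 ± 0.932 RPKM came below (SD, n = 3). In KO only Iigp1 and Irgm1, and Gbp5 and Irgm2, were neighbours closer than the sum of their SDs. Gbp2 thus moved from the fifth place in WT to the second in KO.

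The genes for these proteins lie in clusters, and neighbours within a cluster had unequal log2 fold changes. On chromosome 3 (RefSeq GRCm38.p6, that is mm10), Gbp5, Gbp7, Gbp3, Gbp2b and Gbp2 follow each other on the plus strand between 142496934 and 142638008. Over all samples Gbp5 and Gbp2, the genes at its ends, rose, and Gbp2b, 1484 bases before Gbp2, had the opposite sign. Without WT replicate 3 this contrast was lost, since Gbp5, Gbp7, Gbp3 and Gbp2 were all called higher and Gbp2b was at 0.19 and not called. On chromosome 5, Gbp9 (105076464 to 105110357, minus strand) lies between Gbp8, which was not called (log2FC 0.43, adjusted p = 0.0052), and Gbp4, which rose (1.0, adjusted p = 0.000663). On chromosome 11, Irgm1 (48865245 to 48871420, minus strand) and Ifi47 (49076587 to 49096987) lie on either side of the effectors Tgtp1 and Tgtp2, and Igtp (58199556 to 58207592) lies 7385 bases before Irgm2 (58214977 to 58222783). Iigp1 is on chromosome 18 (60373616 to 60392634).

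**Figure D3:**
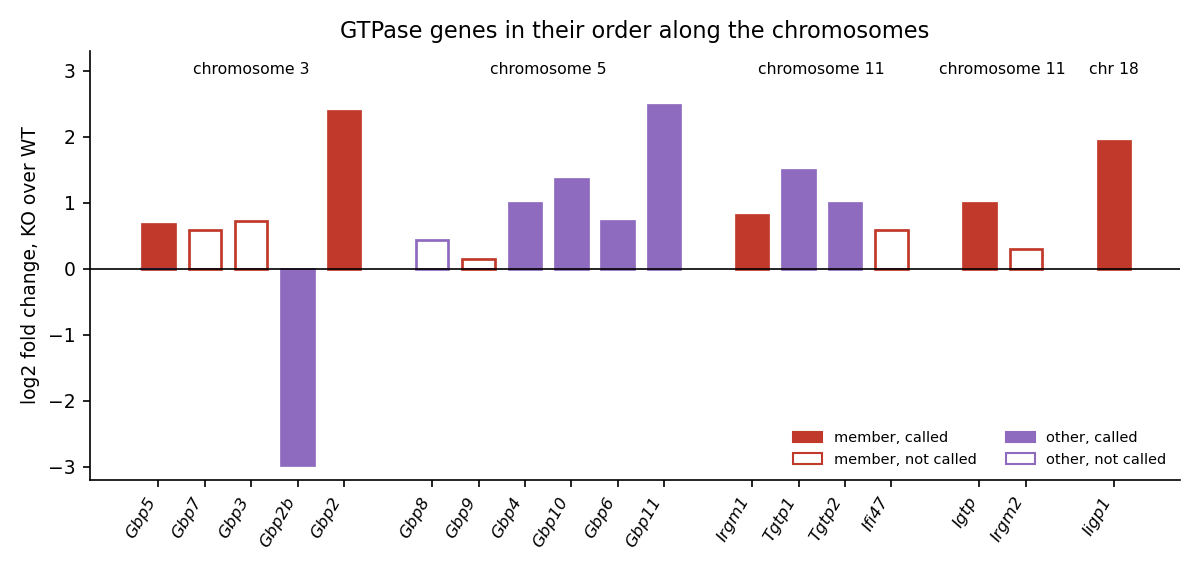
Log2 fold change of KO over WT (bars) for the GTPase genes in their order along each chromosome, not to scale and without those of chromosome 7 (Irgc1, Irgq and Gvin1), with the 10 genes described in red, other members of the families in purple, and open bars for genes not called. In each cluster of chromosomes 3, 5 and 11 called and uncalled genes stand side by side, and Gbp2b, at -2.97 over all samples, lies below 0.

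Some members cannot be fully separated from a neighbour, since the strand setting of the counts was not stated and GENCODE M21 gene models can be longer than the RefSeq positions above. In GENCODE M21, Igtp overlaps Irgm2 on the same strand, Gbp9 overlaps transcripts of Gbp4 and Gbp8, Gbp7 overlaps Gm43802, and Ifi47 overlaps Olfr56 on its own strand and Gm12188 on the other, so their values are given as uncertain. Of all stretches of 100 bases in their transcripts, 10.01% for Gbp7, 5.16% for Igtp, 3.01% for Irgm2 and 2.01% for Gbp9 also occurred in transcripts of another gene, mostly these neighbours. The share was 0% for Gbp2, Gbp5, Irgm1 and Iigp1, which include the 2 members with the largest log2 fold changes, and under 1% for Gbp3 and Ifi47. For stretches of 50 bases the shares were larger, at 2.07% for Gbp2, all with Gbp2b, 3.2% for Iigp1, 0.956% for Irgm1, 0.234% for Gbp5, 11.8% for Igtp and 12.7% for Gbp7.

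Promoters of Gbp2, Gbp5, Irgm1, Igtp, Irgm2 and Ifi47 are shown because the GTPases are classical targets of interferon elements and because neighbouring members differed in log2 fold change. The motifs searched were the interferon-stimulated response element (ISRE), read as GAAANNGAAA on either strand, and the gamma-activated site (GAS), read as TTCNNNGAA, in windows of 250 bases before to 50 bases after each gene's start. RefSeq GRCm38.p6 windows matched 8 of the 10 members. An ISRE was found for 7 of these 8 and a GAS for 4 (Gbp5, Gbp7, Igtp and Irgm2), and those 4 had both. These are counts of genes with a match in any window, whereas the shares that follow are of windows. The 8 members had 9 windows, and window 2 of Gbp3 held neither motif. Of all 32851 windows, 3.44% held an ISRE, 8.3% a GAS and 0.454% both. Ifi47 had neither motif in its window, and Gbp5 had another GAS at positions -245 to -237, upstream of the stretch shown. Each sequence below ends at the base before the gene's start, on the gene's own strand, with motif matches in capitals; overlapping matches in Irgm1 form 1 run.
Gbp2, chr3:142620483-142620662: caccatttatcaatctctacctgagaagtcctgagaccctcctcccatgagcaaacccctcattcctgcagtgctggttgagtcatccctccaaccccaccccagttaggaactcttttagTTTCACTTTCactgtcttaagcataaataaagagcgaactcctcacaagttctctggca
Gbp5, chr3:142496754-142496933: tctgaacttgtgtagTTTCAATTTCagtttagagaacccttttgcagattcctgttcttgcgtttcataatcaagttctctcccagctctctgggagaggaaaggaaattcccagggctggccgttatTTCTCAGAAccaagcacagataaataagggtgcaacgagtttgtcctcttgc
Irgm1, chr11:48871421-48871540, minus strand: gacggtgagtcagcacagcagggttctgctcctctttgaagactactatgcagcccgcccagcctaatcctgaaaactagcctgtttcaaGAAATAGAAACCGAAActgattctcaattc
Igtp, chr11:58199436-58199555: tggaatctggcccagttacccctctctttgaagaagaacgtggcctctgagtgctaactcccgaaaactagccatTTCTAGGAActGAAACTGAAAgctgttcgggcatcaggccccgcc
Irgm2, chr11:58214857-58214976: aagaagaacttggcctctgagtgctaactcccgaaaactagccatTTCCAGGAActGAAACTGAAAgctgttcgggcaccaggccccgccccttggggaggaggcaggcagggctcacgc
Ifi47, chr11:49076467-49076586: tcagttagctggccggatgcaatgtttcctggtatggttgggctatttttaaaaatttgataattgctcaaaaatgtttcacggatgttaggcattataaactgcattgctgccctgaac

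Members with the same motifs had unequal log2 fold changes. Igtp and Irgm2 both had a GAS shortly before an ISRE, at positions -45 to -25 and -75 to -55 from the start. Igtp nevertheless had a log2 fold change of 1.0 and Irgm2 of 0.30. Their ISRE matches had the same letters, and their GAS matches differed (TTCTAGGAA and TTCCAGGAA). The longest run of identical bases in their windows, 61, began downstream of these motifs, at -11 in Igtp and -41 in Irgm2. Gbp2, with the largest log2 fold change, had a single ISRE at positions -59 to -50 and no GAS in the window. A match in these windows is a description of letters, not evidence that a factor bound there.

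A list of 13 other measured GTPases held further genes of both families together with Gvin1, Mx1 and Mx2. Of these 13, 6 rose and 1 fell, beside the 24.4% of all genes called in either direction. Gbp11 rose from 2.56 ± 1.54 CPM in WT to 14.3 ± 0.766 CPM in KO, a log2FC of 2.48 (SE 0.37, adjusted p = 0.00161), the largest rise of any gene in these lists of GTPases. Gbp10 (1.36), Gbp4 (1.0) and Gbp6 (0.73) rose as well, and so did the effectors Tgtp1 (1.5) and Tgtp2 (0.99), near-identical copies whose reads may be split between them. Gbp6 (adjusted p = 0.06) lost its call when any sample other than WT replicate 3 was left out. Irgq (-0.18) and Gvin1 (0.11), a very large GTPase, were not called. Without WT replicate 3, 8 of the 13 were called higher, beside 13.6% of all genes, and 1 lower.

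The remaining GTPases showed how far WT replicate 3 differed. Mx1 and Mx2, dynamin-like GTPases known as targets of type I rather than type II interferon, were not called. Mx1 was at 17.0, 14.3 and 83.8 CPM in WT and at 43.3, 37.7 and 41.7 CPM in KO, and Mx2 was at 7.12, 5.48 and 46.0 CPM in WT and at 12.04, 10.4 and 11.2 CPM in KO, so WT replicate 3 was the highest sample for both. Without it, both were called higher in KO, at 1.38 and 0.82. Gbp2b was called lower (log2FC -2.97, SE 1.24, adjusted p = 0.0967), from 0.733, 2.16 and 36.1 CPM in WT and 1.42, 1.82 and 1.70 CPM in KO, and leaving out WT replicate 3 gave 0.19 and no call. Irgc1 went the other way, with 18.5, 19.3 and 0.24 CPM in WT and 9.25, 8.34 and 9.50 CPM in KO.

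**Figure D4:**
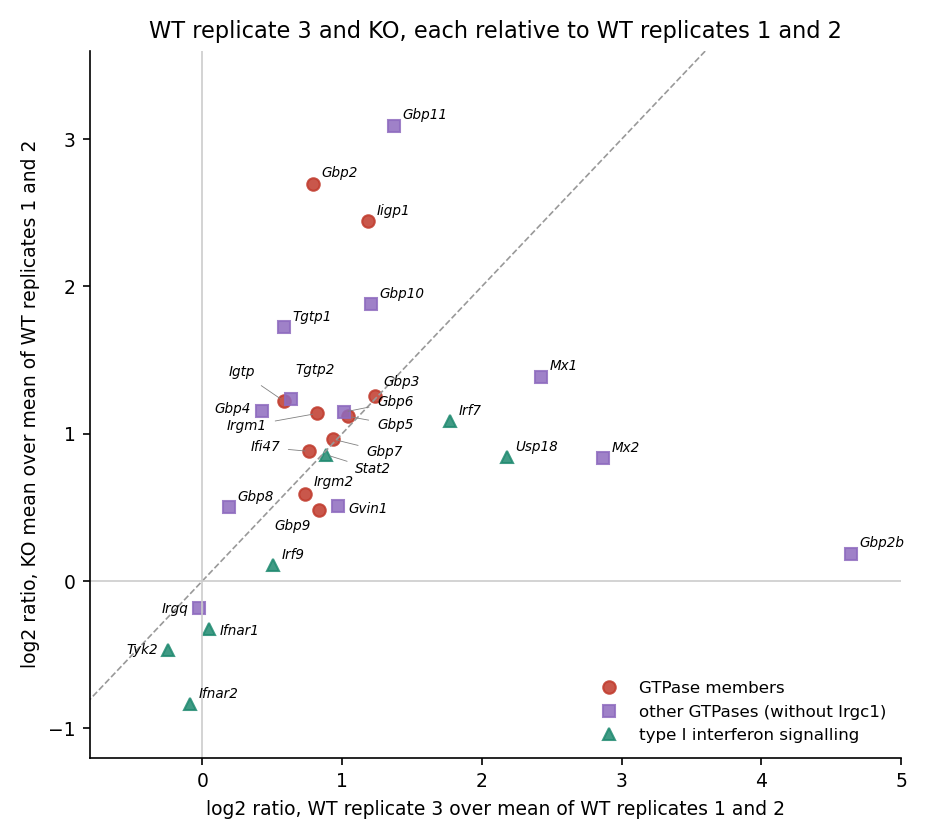
Log2 ratio of the KO mean (vertical axis) and of WT replicate 3 (horizontal axis), each over the mean of WT replicates 1 and 2, for the 10 GTPases in red, other GTPases without Irgc1 in purple, and type I interferon signalling genes in green. Gbp2, Iigp1, Gbp11, Gbp10 and Tgtp1 lie well above the dashed line of equal ratios, whereas Mx1, Mx2, Irf7, Usp18 and Gbp2b lie far below it.

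The genes upstream of the GTPases were measured as well, beginning with the ligand. Ifng, which encodes IFN-γ, was at 3.78, 4.54 and 2.64 CPM in WT and at 82.8, 84.7 and 84.4 CPM in KO (log2FC 4.52, SE 0.18, adjusted p = 7.11e-06). Here WT replicate 3 was the lowest of all samples, and the log2FC without it was 4.34. The receptor chain Ifngr1 rose (1.23, SE 0.22), and for the other chain, Ifngr2, the log2 fold change was -0.56 (SE 0.07, adjusted p = 0.000775), a difference under the fold cutoff. The kinase Jak2 rose (0.89, SE 0.11), and Jak1 was not called (-0.15).

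Of the factors that act below the receptor, Irf1 rose from 281 ± 102 CPM in WT to 559 ± 26.5 CPM in KO, a log2FC of 0.99 (SE 0.22, adjusted p = 0.00963). The factor Irf8 (0.50) and the inhibitors Socs3 (0.67), Ptpn1 (0.30), Ptpn2 (0.21), Socs1 (0.14) and Pias1 (-0.13) were not called. In all, 4 of 13 genes of IFN-γ signalling rose, beside 11.9% of all genes tested, and 0 fell, with a median of 0.50. Without WT replicate 3, 6 were called higher, beside 13.6% of all genes.

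In type I interferon signalling, 0 of 7 genes rose and 1 fell, beside 24.4% of all genes called in either direction. The receptor chain Ifnar2 fell by 0.81 on the log2 scale (SE 0.07, adjusted p = 0.000205). Ifnar1 (-0.34), Tyk2 (-0.39), Stat2 (0.50), Irf9 (-0.08), Irf7 (0.24) and Usp18 (-0.28) were not called. WT replicate 3 was the highest sample for Irf7, at 203 CPM beside 58.5 and 60.4 CPM in the other WT samples and 131, 122 and 126 CPM in KO, and without it Irf7 (1.08), Usp18 (0.84) and Stat2 (0.85) were called higher.

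Other interferon-inducible genes mostly had small positive log2 fold changes. In class I antigen presentation all 10 were positive and 1 of 10 genes rose (Psmb9, an immunoproteasome subunit, 0.68), a share near the 11.9% of all genes called higher. Every KO sample was above every WT sample for 9 of the 10, beside 26.2% of all genes, and the median was 0.48. Of 22 other interferon-inducible genes measured, 18 were positive, 6 rose (beside 11.9% of all genes) and 0 fell, led by Ly6a (2.86), Cxcl9 (2.80) and Oasl2 (1.41). WT replicate 3 exceeded 1.5 times both other WT samples for 18 of these 22, beside 8.44% of all genes. Without it 15 were called higher, beside 13.6% of all genes. Ly6a was at 26.4, 27.3 and 103 CPM in WT and at 391, 373 and 377 CPM in KO.

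Genes of the processes in which the GTPases take part were listed too. Of the 10 genes of LC3 conjugation, the machinery needed to bring both families to vacuoles, 1 rose (Atg7, 0.84) and 0 fell, a share near the 11.9% of all genes called higher. Of 8 inflammasome genes, 4 rose, among them Casp1 (2.28), Nlrp3 and Il1b, and Aim2 fell by 0.73 on the log2 scale, beside 24.4% of all genes called in either direction. Nlrp3 and Il1b were scarce, at a mean of 1.85 and 0.87 CPM in KO and at 0 to 8 counts in each WT sample, so no fold is given for them. Casp1 rose from 4.94 ± 0.566 to 24.004 ± 0.948 CPM.

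Markers of several other cell types were higher in KO, and these values stand beside every result above. Of all genes tested, 11.9% were called higher, and a list with a single gene called is too short to set against that share. The summed level of 7 macrophage and monocyte markers lay between 18.7 and 29.7 CPM in WT and between 51.6 and 59.3 CPM in KO, and 6 of 7 rose, although the defining markers Adgre1 and Fcgr1 were near 0 in WT and at no more than 1.34 and 0.996 CPM in KO. Of the neutrophil markers 3 of 3 rose, from a sum of 0.054 to 0.578 CPM in WT to 4.51 to 7.25 CPM in KO, with S100a8 and S100a9 at 0 in all WT samples. Of the NK cell markers 3 of 4 rose (3.78 to 5.89 CPM in WT, 15.4 to 17.3 CPM in KO), of the dendritic cell markers 1 of 5 (2.41 to 4.24 CPM and 8.92 to 11.6 CPM), of the B cell markers 1 of 5 (8.98 to 13.7 CPM and 15.3 to 15.998 CPM) and of the CD8 T cell markers 1 of 2 (9.32 to 13.2 CPM and 12.02 to 12.7 CPM). Erythroid markers (15.5 to 63.2 CPM in WT, 27.3 to 29.97 CPM in KO, 0 of 3 higher) and stromal, endothelial and epithelial markers (209.7 to 213 CPM in WT, 139 to 148 CPM in KO, 0 of 4 higher) did not rise.

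The Treg markers were abundant in all samples, at a sum of 3927 to 5104 CPM in WT and 3309 to 3405 CPM in KO. Of the 6 markers 2 fell and 0 rose, beside 24.4% of all genes called in either direction. Foxp3 and Ikzf2 fell by 0.88 and 1.11 on the log2 scale. Cd3e (-0.45), Ctla4 (-0.41), Il2ra (-0.12) and Cd4 (0.26) were not called. Without WT replicate 3, Foxp3 was at -0.57 and not called, and Ikzf2 was at -1.17 and still called lower. WT replicate 3, which had the highest GTPase levels of the WT samples, had the highest Foxp3 level of all samples, 1190 CPM. Its macrophage and erythroid sums were the lowest of all samples. Its sums for NK cell (5.89 CPM), dendritic cell (4.24 CPM) and CD8 T cell markers (13.2 CPM) were the highest of the WT samples. For neutrophil, B cell, and stromal, endothelial and epithelial markers, its sums lay between those of the other WT samples. The 10 GTPases summed to between 1039 and 1940 CPM in WT and at least 2554 CPM in KO. CPM sums of different genes do not measure shares of cells, so the GTPase sums are not set against those of the markers. What part cells other than Tregs had in the GTPase levels was not tested.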

How the data were processed

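Tregs from 3 WT and 3 KO samples were profiled by bulk RNA-Seq. The study's methods name SOAPnuke for filtering of reads, HISAT2 for alignment to mm10 (with 1 alignment reported for each read) and StringTie for quantification. The authors deposited whole-number counts per gene, without normalization. How the counts were made whole, the strand setting and the annotation were not stated in the sources used here. The table had 13709 rows with 13680 symbols, and its smallest row sum was 60, so low-count genes had been removed before.

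Here, counts were scaled with TMM and tested with edgeR 4.0.16 in R 4.3.3 (glmQLFit, glmQLFTest, two-sided, no covariates). Genes were kept by filterByExpr at a minimum count of 10, which removed 115 and left 13594. P-values were adjusted by Benjamini-Hochberg over all genes tested. The cutoffs of a fold above 1.5, p under 0.05 and adjusted p under 0.1 are those of the study, which used DESeq2. SEs were derived from the F statistic. With totals of 32032631 to 40728419, 3 counts equal 0.0747 to 0.0913 CPM, a limit from counting error alone. Samples were grouped by the genotype in the labels. Alternatives used DESeq2 1.42.0, limma 3.58.1, other scalings, filters and cutoffs, the replicate number as a block, and each sample left out. RPKM used exon lengths of GENCODE M21. Promoters and positions came from RefSeq GRCm38.p6, of the same build. The scripts were tested on simulated data with 200 changed genes.

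The 10 members and all lists were chosen with earlier results of these data known. The text names all members, Zfp335, every gene of the lists of other GTPases, IFN-γ signalling (except 1, which is not reported here) and type I interferon signalling, up to 3 called genes per direction of other lists, and the 5 genes whose profile was nearest to the members' mean.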

Additional observations from a re-analysis of the deposited data

How the results depend on the processing

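Under 15 alternatives, Gbp2, Iigp1 and Igtp stayed called higher and Gbp9 and Irgm2 uncalled, and no member changed sign. Irgm1 lost its call in 1 (a test against a 1.5-fold threshold, glmTreat), Gbp5 in 8, and Gbp3, Gbp7 and Ifi47 each gained one in 6. The number of members called, 5 in the report, was 8 with RLE scaling, 8 with at least 10 counts in every sample, 3 with glmTreat, 8 with the replicate block, and 8 with limma sample weights, an alternative added after seeing the data in which WT replicate 3 had a weight of 0.199. With DESeq2, the tool the study used, it was 6, with Gbp7 and Ifi47 called and Gbp5 not called. It was 4 to 8 when 1 sample was left out, and 8 only without WT replicate 3. Of all genes, 3318 were called, 5244 at adjusted p under 0.05 with no fold cutoff, 1686 with glmTreat, and 2867 to 3667 with 1 sample left out. Replicate numbers did not pair the samples (correlations of deviations 0.0735, 0.0279 and -0.000622), and with the replicate block 3190 genes were called, 3100 of them shared.

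Signs changed only for genes that were not called or rested on WT replicate 3. With 1 sample left out, log2 fold changes ran from -3.53 to 0.19 for Gbp2b, -0.0923 to 0.50 for Gvin1, -0.30 to 1.38 for Mx1, -1.24 to 0.82 for Mx2, -0.18 to 0.11 for Irf9, -0.0605 to 1.08 for Irf7 and -0.64 to 0.84 for Usp18, in each case with the highest value without WT replicate 3. With sample weights they were 0.56 for Mx2, 0.0652 for Irf9 and 0.65 for Usp18, and with the replicate block 0.19 for Irgc1 and 0.13 for Usp18. The causes of these changes were not tested. Counting error was small for all members, and the precision was limited by the spread between 3 samples per group.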
